A study of Mus musculus with 24 samples.

Results

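H3K27Ac, the acetylated form of a lysine in the tail of histone H3, was compared between mouse brain and mouse kidney by chromatin immunoprecipitation and sequencing (ChIP-seq). The deposited table covers brain, heart, kidney and liver in 8 libraries, and the difference was taken from the 4 of brain and kidney. These were 1 library of flash-frozen tissue (Frozen) and 1 of formalin-fixed, paraffin-embedded tissue (FFPE) from each organ. The heart and liver libraries were in the same fit and entered only the estimate of spread behind the standard errors and p-values. Both brain libraries were set against both kidney libraries with preservation as a block, over 26944 of the 27179 genes in the table. The other 235 genes had no count in any of the 8 libraries. Per the labels, Frozen cores of both organs were crosslinked in 1% formaldehyde for 30 min, FFPE organs had been fixed in 10% formalin and went through an extraction of 20 min at 95 °C, with ultrasound shearing in both protocols. Strain, genotype, age, sex, the number of animals, and the brain region or part of the kidney that was sampled are not stated in the labels. The labels list 2 H3K27Ac samples for each organ and preservation, but the table holds 1 column for each, and whether a column is 1 sample or a merge of both is not stated. The p-values therefore do not measure the spread between replicates. They rest on how far Frozen and FFPE disagreed across brain, heart, kidney and liver, with 3 residual degrees of freedom. To this limma added a variance prior shared by genes of similar level, with a median of 30.6 degrees of freedom. The spread may be technical. The labels also name more than 1 ChIP run and alternative library kits that could not be matched to columns, and their part in the results was not tested.

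H3K27Ac is placed on nucleosomes by the acetyltransferases p300 and CBP and is found at active promoters and enhancers, so a gene that is in use in a tissue usually carries more of it. In brain, genes of neurons and glia carry the mark; in kidney it lies at genes of the nephron, the tubule that filters blood, takes back solutes and water, and makes glucose. Hox genes, which record the position of a cell along the body axis, are in use in the kidney, a trunk organ, and are silent in the forebrain and midbrain.

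The 4 libraries held between 4618827 and 5309082 counts in genes, with a median of 97 to 119 counts per gene. Mitochondrial genes took 16.0% of the counts in brain FFPE and 18.4% in kidney FFPE, against 5.62% in brain Frozen and 4.52% in kidney Frozen, so this share differed by preservation more than by organ. Values are log2 CPM, that is, counts scaled to an effective size of the library. Relative to the total counts that size was 1.22 in brain Frozen, 1.04 in brain FFPE, 1.17 in kidney Frozen and 0.99 in kidney FFPE. The kind of scaling behind these factors was not examined. A difference is brain minus kidney on that scale, the mean of the Frozen and the FFPE difference, so that 1 is a 2-fold difference. A gene is said to be called, or to be higher in one organ, when its adjusted p was below 0.05 (limma, Benjamini-Hochberg over all 26944 genes).

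Of the 26944 genes, 2945 were called, which is 10.9%: 1266 were higher in brain (4.7%) and 1679 were higher in kidney (6.23%). These shares are the background for the counts in the gene lists below. The genes higher in brain differed by a median of 2.49-fold, and 160 of them by 4-fold or more. The genes higher in kidney differed by a median of 2.31-fold, and 178 by 4-fold or more. The direction was the same in Frozen and in FFPE for 1265 of the 1266 genes higher in brain and for 1679 of the 1679 genes higher in kidney. The exception was Gm19654, a predicted gene named because it stood alone, with 5.08 in brain Frozen and 5.09 in kidney Frozen but 6.54 in brain FFPE and 4.07 in kidney FFPE; its call was lost without brain FFPE and without kidney FFPE. Both brain libraries lay above both kidney libraries for 1263 of the genes higher in brain, and the reverse held for 1675 of those higher in kidney; over all genes the shares were 26.5% and 26.6%. Since a call rests on the mean of both preservations relative to their disagreement, calls were bound to be more alike between them than other genes.

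Over all genes, called or not, the difference had the same sign in both preservations for 18386 (68.2%) and the opposite sign for 8558 (31.8%). At least 2-fold in both preservations, 1006 genes were higher in brain (3.73%) and 989 were higher in kidney (3.67%), while 173 differed at least 2-fold in opposite directions. Of those 173, 13 had at least 40 counts in both the Frozen and the FFPE pair. Across genes, the Frozen and FFPE differences had a Pearson correlation of 0.520, and of 0.675 among genes with at least 40 counts in each pair; these are descriptions, since genes are not independent replicates. The number of calls was sensitive to single libraries and to how the spread was estimated. It was 857 without kidney FFPE, 1602 without kidney Frozen, 1843 without brain Frozen and 361 when the prior variance was not allowed to depend on the level. The counts for the gene lists below fell with that last setting in most lists, for example from 18 to 7 for the proximal tubule and from 17 to 4 for nephron transcription factors.

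**Figure D1:**
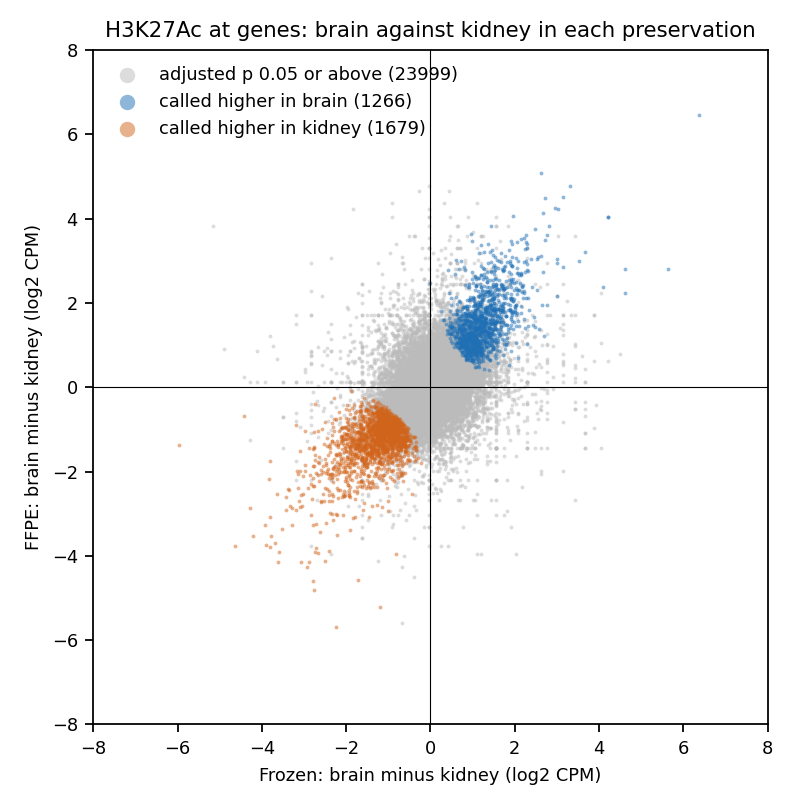
Each point is a gene; the x axis gives its brain minus kidney difference in Frozen tissue and the y axis the same in FFPE tissue, both in log2 CPM. The 1266 genes called higher in brain (blue) lie in the upper right, apart from Gm19654 at the vertical line, and the 1679 called higher in kidney (orange) in the lower left, and the 23999 other genes (grey) surround the origin.

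The largest differences toward brain lay at microRNA genes and their host transcripts, at a synaptic gene and at a few genes that are not known for neurons. Mir124a-1hg, the host gene of a copy of miR-124, the microRNA that is most abundant in neurons, stood at 7.22 in brain Frozen, 8.40 in brain FFPE, 4.28 in kidney Frozen and 4.15 in kidney FFPE. The difference was 3.60 ± 0.29 (log2, SE, 2 libraries a side; limma adjusted p = 2.31e-10). Mir124-2hg, the host of another copy, was higher in brain by 2.97 ± 0.41. Sncb encodes beta-synuclein, a presynaptic protein, and read 5.59 and 6.24 in brain Frozen and FFPE against 2.91 and 2.10 in kidney. It was higher in brain by 3.41 ± 0.43, or 10.6-fold (limma adjusted p = 8.81e-07). Atoh7, a transcription factor known from retinal ganglion cells, had 4.42 and 4.57 in brain Frozen and FFPE and 0.75 and 1.36 in kidney, and was higher in brain by 3.44 ± 0.52. The remaining genes of this group were 1700125G02Rik at 3.32, Olfr1324 at 3.24 and Ppp2r2cos at 3.12. Ppp2r2cos is transcribed opposite to Ppp2r2c, and ChIP reads where the pair overlaps cannot be assigned to either gene. Olfr1324 belongs to the family of olfactory receptor genes, and whether its reads also match other members was not examined. The call for Olfr1324 was lost without brain Frozen.

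Acta1, the actin of skeletal muscle, was among the 12 genes with the largest differences toward brain. It stood at 6.05 in brain Frozen and 6.09 in brain FFPE and at 3.04 and 3.05 in kidney Frozen and FFPE, a difference of 3.03 ± 0.36 (limma adjusted p = 4.69e-07). The gene lies at chr8:123891758-123894775 in GRCm38 next to Ccsap, a gene for a protein of centrioles, which was higher in brain by 1.66 ± 0.28. Of 16 skeletal muscle genes gathered after these values were seen, 2 were called, Acta1 and Myog, both higher in brain, and the median of the 16 was 0.25. Myog, a muscle transcription factor, differed by 1.14 and lies on chromosome 1 in a run of 4 genes higher in brain that also holds Adora1, the adenosine A1 receptor. Myog lost its call without brain FFPE, without brain Frozen and without kidney FFPE, and Adora1 without kidney Frozen, whereas Acta1 kept it without any 1 of the 4 libraries.

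The largest differences toward kidney lay in the Hox clusters and at Pck1. Pck1, the gene of the cytosolic enzyme that commits carbon to glucose, had 8.03 in kidney Frozen and 7.43 in kidney FFPE against 4.35 and 3.75 in brain. The difference was -3.69 ± 0.27, or 12.9-fold, and it was -3.69 in Frozen and -3.69 in FFPE alike (limma adjusted p = 2.57e-11). Hoxa7 had the largest fall from kidney to brain, -4.20 ± 0.30, or 18.4-fold. Of the 12 genes with the largest differences toward kidney, 6 others were Hox genes, Hoxb4, Hoxb8, Hoxb2, Hoxb7, Hoxa9 and Hoxb6, with differences between -3.89 and -3.61. Also among the 12 were the Hox antisense transcript Hoxaas3 (-3.88), whose reads cannot be told from those of the Hox genes it overlaps, the microRNA loci Mir3109 and Mir10a, and 1700061E17Rik (-3.67). The call for 1700061E17Rik was lost without brain Frozen and without kidney Frozen, that of Mir10a without kidney FFPE, and that of Mir3109 without brain FFPE and without kidney FFPE.

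Most listed genes of neurons were higher in brain. Of 20 genes used across neuron types, 16 were higher in brain and 0 higher in kidney (20 and 0 by an unadjusted p below 0.05), and the list's median was 1.36 against 0.014 over all genes tested. Stmn2, a regulator of microtubules in growing axons, read 5.58 and 6.85 in brain Frozen and FFPE and 3.30 and 3.92 in kidney, a difference of 2.61 ± 0.34 (limma adjusted p = 1.41e-06). Snap25, part of the machine that fuses synaptic vesicles, read 5.32 and 6.26 in brain against 3.64 and 3.80 in kidney, a difference of 2.07 ± 0.34. In both genes the brain FFPE library was the highest and the organs did not overlap. Of 23 synaptic vesicle genes, 14 were higher in brain, among them Syt4 (1.98) and Cplx1 (1.97), while Syp, the gene of synaptophysin, had 4.71 and 5.02 in brain Frozen and FFPE and 4.83 and 4.52 in kidney and was not called (limma adjusted p = 0.80). In tissue, fewer cells of a type and less mark per cell cannot be told apart. The counts were lower under some alternatives: the 20 neuronal genes gave 7 calls and the vesicle genes 2 when the prior variance did not depend on the level, and the neuronal genes gave 7 calls without brain Frozen, 7 without kidney FFPE and 11 without kidney Frozen, the vesicle genes gave 6 without kidney FFPE, and Cplx1 lost its call without kidney FFPE.

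Genes for glutamate and GABA signalling were among those higher in brain. Of 18 genes of glutamatergic neurons, 14 were higher in brain, and of 25 glutamate receptor genes, 16. Gria2, a subunit of the AMPA receptor, read 7.18 and 7.20 in brain Frozen and FFPE and 5.23 and 5.41 in kidney, a difference of 1.87 ± 0.26 (limma adjusted p = 3.52e-06). Grin1, the obligatory subunit of the NMDA receptor, differed by 1.89 ± 0.28, and Slc17a7, which loads glutamate into vesicles, by 1.65 ± 0.33. Of 18 genes of GABAergic neurons, 5 were higher in brain, and Gad1 and Gad2, the enzymes that make GABA, differed by 0.88 (limma adjusted p = 0.070) and 0.89 (limma adjusted p = 0.037). Whether the glutamatergic and GABAergic lists differ was not tested. Of 19 receptor genes for GABA and glycine, 12 were higher in brain. Gabra6 and Gabrb2, subunits of the GABA-A receptor on chromosome 11, differed by 2.35 and 2.19. Of 16 genes of monoamine and cholinergic neurons, 0 were higher in brain (2 by an unadjusted p below 0.05). The 1 higher in kidney (6.25%) was Adora2a, an adenosine receptor, at -0.81. Over all genes the shares were 4.7% and 6.23%, so with 16 genes these counts lie near background. Without kidney FFPE the calls were 4 for glutamatergic genes, 6 for glutamate receptors, 3 for GABAergic genes and 5 for GABA and glycine receptors, and Slc17a7 lost its call. The GABAergic list also had 3 calls without brain FFPE, without brain Frozen and without kidney Frozen and 8 calls with quantile normalization, and the GABA and glycine receptor list had 8 without brain Frozen and without kidney Frozen, and Gad2 and Adora2a lost their calls without any 1 of the 4 libraries.

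Voltage-gated channels, which carry the action potential, were higher in brain for 16 of 26 listed genes and higher in kidney for 0. Kcna1, a potassium channel of axons, had 7.79 and 8.33 in brain Frozen and FFPE against 5.57 and 5.36 in kidney, and the difference was 2.60 ± 0.26 (limma adjusted p = 1.42e-08). Kcna2 and Kcnc1, potassium channels of the same superfamily, differed by 2.19 ± 0.25 and 2.14 ± 0.28. When all 92 potassium channel genes named Kcn were gathered after the values were seen, 27 were higher in brain and 6 higher in kidney. The largest were Kcnk12 (2.86), Kcna1 and Kcnj11 (2.41), the pore of the ATP-sensitive channel. The 6 higher in kidney were Kcnk5 (-1.49), Kcnq1 (-1.31), Kcnj15 (-1.27), Kcnj1 (-1.17), Kcnj16 (-1.04) and Kcne4 (-0.91). Kcnj1 encodes ROMK, the channel that secretes potassium in the distal nephron, and Kcnj16 encodes a subunit of the basolateral channel of the tubule. Without kidney FFPE the listed channels gave 4 calls and the Kcn genes 9 toward brain and 1 toward kidney. Without brain FFPE the listed channels gave 10, and the Kcn genes gave 3 toward kidney both there and without kidney Frozen. Kcnk5 kept its call without any 1 of the 4 libraries, while Kcnq1, Kcnj15, Kcnj1, Kcnj16 and Kcne4 lost theirs without kidney FFPE, Kcnj15, Kcnj1 and Kcnj16 without brain FFPE, Kcnj1, Kcnj16 and Kcne4 without kidney Frozen, and Kcne4 without brain Frozen.

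Genes of glia higher in brain were 2 of 16 for astrocytes (12.5%) and 3 of 20 for oligodendrocytes and their precursors (15%), beside 4.7% of all genes. Those of astrocytes were Agt, the precursor of angiotensin, which astrocytes make, at 1.77 ± 0.31, and Slc1a2, the main glutamate transporter of astrocytes, at 1.09 ± 0.27. Gfap, the filament protein of astrocytes, had 5.86 and 5.51 in brain Frozen and FFPE and 4.87 and 5.15 in kidney and was not called (limma adjusted p = 0.15). The oligodendrocyte genes were Olig1, a transcription factor of the lineage (1.66 ± 0.32), Ermn, a cytoskeletal protein of myelin (1.42 ± 0.33), and Mbp, a main protein of myelin (0.93 ± 0.25). Slc1a2 and Ermn lost their calls without brain Frozen and without kidney FFPE, Mbp lost it without those or kidney Frozen, and Olig1 lost it without kidney FFPE. The number of glial calls depended on the setting. The oligodendrocyte list had 11 calls with the same median and spread in every library, 10 with quantile normalization, 12 in the fit on the 4 libraries alone, 0 when the prior variance did not depend on the level, and 12 by an unadjusted p below 0.05; the astrocyte list had 5, 5, 6, 1 and 6 in the same order. Kl, the co-receptor of FGF23 in the renal tubule, is listed both for the choroid plexus and for the loop of Henle and distal tubule. Of 12 genes of the choroid plexus and ependyma, 0 were higher in brain and 4 were higher in kidney. These were Folr1, a folate receptor (-1.51), Ccdc153 (-1.44), Rarres2, or chemerin (-1.37), and Kl (-1.36). That list had 1 call without brain Frozen, without kidney FFPE and without kidney Frozen: Ccdc153 was lost without any 1 of the 4 libraries, Folr1 without those 3, Rarres2 without brain Frozen or kidney FFPE, and Kl without kidney Frozen.

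**Figure D2:**
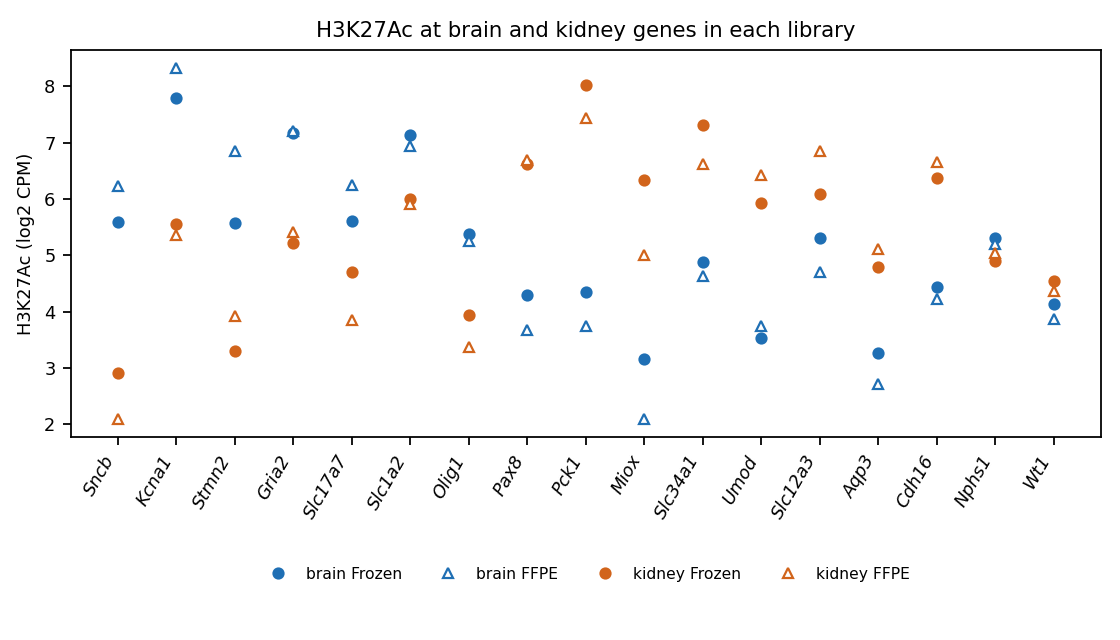
H3K27Ac level (y axis, log2 CPM) of 17 genes (x axis) in brain Frozen, brain FFPE, kidney Frozen and kidney FFPE, 1 point per library. At the 7 genes from Sncb to Olig1 both brain points lie above both kidney points, at the 8 genes from Pax8 to Cdh16 the reverse holds, and the last 2, Nphs1 and Wt1, were not called.

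Among 23 transcription factor genes of the forebrain and other brain regions, 11 were higher in brain. The largest difference toward brain within this list was 2.32. Neurod1 and Neurod2 drive the maturation of neurons. Neurod1, which is not in this list, read 5.88 and 7.36 in brain Frozen and FFPE against 3.83 and 3.90 in kidney (2.75 ± 0.34). Neurod2 read 6.09 and 7.13 against 4.62 and 4.28 (2.16 ± 0.30, limma adjusted p = 4.05e-06). Against the list's direction, Emx2, which is needed for both the cerebral cortex and the urogenital system, was higher in kidney: it had 6.78 and 6.92 in kidney Frozen and FFPE against 4.63 and 4.48 in brain, a difference of -2.30 ± 0.29 (limma adjusted p = 9.24e-07). Its relative Emx1 was also higher in kidney, at -1.54 ± 0.41, and lost its call without brain FFPE and without kidney Frozen. The list gave 5 calls toward brain without kidney FFPE.

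Genes of the cerebellum were among those higher in brain, and most of them had more of the mark in brain FFPE than in brain Frozen. Of 25 cerebellar genes gathered after the values were seen, 17 were higher in brain and 0 higher in kidney. They gave 3 calls when the prior variance did not depend on the level. Their median difference was 1.70, and it was 1.21 without brain FFPE, 2.01 without brain Frozen, 1.30 without kidney FFPE and 1.69 without kidney Frozen. Zic2, a transcription factor of granule cell precursors, read 7.34 in brain FFPE, 5.52 in brain Frozen, 4.65 in kidney FFPE and 4.02 in kidney Frozen. Cbln1, a granule cell protein that organizes synapses on Purkinje cells, read 7.43, 5.59, 4.17 and 3.72 in the same order. Gabra6, the GABA-A receptor subunit of granule cells, had 6.95 in brain FFPE and 5.34 in brain Frozen. Over the 25 genes the median of FFPE minus Frozen was 1.08 in brain and -0.07 in kidney, and 21 of them were higher in FFPE in brain. Over 20 genes of the telencephalon, also gathered after the values were seen, the same median was 0.14 in brain and -0.07 in kidney. Over all genes tested the medians were 0.01 and 0.02, and over the 1266 genes higher in brain 0.22 in brain and -0.03 in kidney. These are values of 1 library per group with no test, and whether the brain pieces held different regions was not tested. En1 and Slc1a6, also of the cerebellum, ran the other way, with 5.22 and 5.10 in brain Frozen and 4.72 and 4.74 in brain FFPE; En1 lost its call without brain Frozen and without kidney FFPE, and Slc1a6 without any 1 of the 4 libraries. Zic1, Zic2, Zic4 and Zic5 were called and remained so without any 1 of the 4 libraries, with differences of 2.09 to 2.67.

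**Figure D3:**
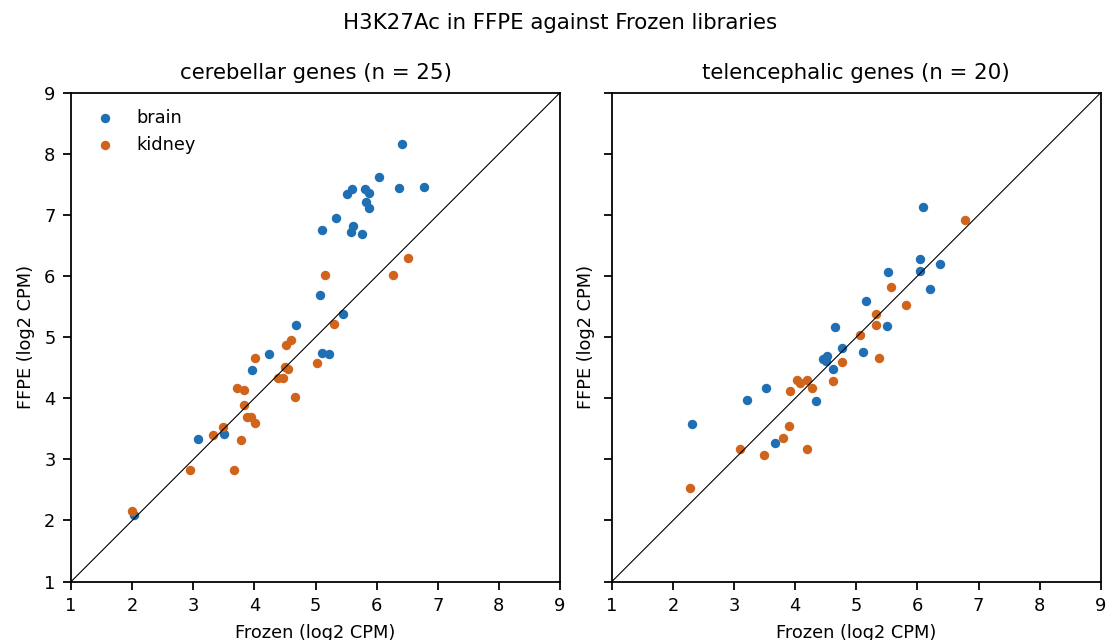
H3K27Ac in FFPE (y axis, log2 CPM) against Frozen (x axis, log2 CPM) for 25 cerebellar genes (left) and 20 telencephalic genes (right), brain in blue and kidney in orange, with the line of equal values. In brain, 21 of the 25 cerebellar genes lie above the line, and 13 of the 20 telencephalic genes do.

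Each list of nephron genes, from the proximal tubule to the collecting duct, held genes higher in kidney. Of 35 proximal tubule genes, 18 were higher in kidney and 0 higher in brain, with a median of -1.16. Miox, which breaks down inositol, read 6.34 and 5.01 in kidney Frozen and FFPE and 3.16 and 2.09 in brain, a difference of -3.05 ± 0.41 (limma adjusted p = 3e-06). Slc34a1, the phosphate transporter of the brush border, read 7.32 and 6.62 in kidney against 4.88 and 4.64 in brain (-2.22 ± 0.28). Dnase1, a secreted nuclease, differed by -2.97 ± 0.36, and Slc6a19, the transporter of neutral amino acids, by -2.31 ± 0.31. Lrp2 and Cubn, the receptors that take up filtered protein, were not called, at -0.68 (limma adjusted p = 0.098) and -0.44 (limma adjusted p = 0.35). Kap, an androgen-regulated kidney protein, had 5.71 in kidney Frozen and 3.97 in kidney FFPE against 1.90 and 2.23 in brain Frozen and FFPE, and lost its call without kidney Frozen. The proximal tubule list had 9 calls without kidney Frozen.

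Of 24 genes of the loop of Henle and the distal tubule, 13 were higher in kidney, with a median of -1.24. Umod, or uromodulin, the main protein of normal urine, read 5.93 and 6.43 in kidney Frozen and FFPE and 3.53 and 3.75 in brain (-2.55 ± 0.33; limma adjusted p = 1.46e-06). Wnk4, a kinase that sets salt transport, differed by -2.29 ± 0.25, and Fxyd2, a subunit of the sodium pump, by -2.45 ± 0.33. Slc12a1 and Slc12a3, the salt cotransporters blocked by loop and thiazide diuretics, differed by -1.36 ± 0.28 and -1.46 ± 0.28. Of 25 collecting duct genes, 7 were higher in kidney (28%, beside 6.23% of all genes). Scnn1a, a subunit of the epithelial sodium channel, differed by -1.89 ± 0.26. Aqp3, a water channel, differed by -1.96 ± 0.39, and Aqp2, the water channel moved by vasopressin, by -1.07 ± 0.36. Without kidney FFPE the loop and distal list had 8 calls and the collecting duct list 1, and Slc12a1, Slc12a3, Aqp3 and Aqp2 lost their calls. The collecting duct list had 3 calls without brain FFPE and 4 without brain Frozen and without kidney Frozen; Aqp2 was lost in each of these, and Slc12a1 without brain FFPE.

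Nphs1, Wt1 and Podxl, which mark the podocyte, the cell of the glomerular filter, were not called. Nphs1, or nephrin, had 5.31 and 5.20 in brain Frozen and FFPE and 4.90 and 5.03 in kidney (0.29 ± 0.27; limma adjusted p = 0.64). Wt1 was at -0.45 ± 0.30 and Podxl at -0.13 ± 0.26. Of the 18 podocyte genes, 5 were higher in kidney (27.8%, beside 6.23% of all genes), led by Foxc2, a transcription factor (-1.71 ± 0.27). In brain 1 was higher (5.56%, beside 4.7% of all genes), Magi2, a scaffold protein of both the slit diaphragm and synapses (0.87 ± 0.26). The kidney calls numbered 3 without brain FFPE, without brain Frozen and without kidney Frozen and 2 without kidney FFPE, and Magi2 was lost without brain FFPE, kidney FFPE or kidney Frozen. Of 20 genes of renin and kidney hormones, 6 were higher in kidney (30%, beside 6.23% of all genes), among them Pth1r, the parathyroid hormone receptor (-1.53 ± 0.28). Ren1 was at -0.08 ± 0.36 and was not called (limma adjusted p = 0.95). That list had 2 calls without brain FFPE and without kidney FFPE and 1 without kidney Frozen.

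Transcription factors of the nephron were higher in kidney for 17 of 31 genes. Pax8, which specifies the renal lineage, read 6.63 and 6.69 in kidney Frozen and FFPE and 4.30 and 3.68 in brain, a difference of -2.67 ± 0.32, or 6.36-fold (limma adjusted p = 5.72e-07). Tfcp2l1, a factor of the distal nephron and collecting duct, differed by -2.47 ± 0.27. Hnf4a, which drives proximal tubule genes, differed by -1.69 ± 0.26. Epithelial genes were higher in kidney for 19 of 26, with a median of -1.46: Esrp2, an epithelial splicing factor, at -2.34 ± 0.28, Elf3 at -2.25 ± 0.31 and Cdh16, the kidney-specific cadherin, at -2.18 ± 0.27. Of 23 claudin genes, the pores and seals of tight junctions, gathered after the values were seen, 10 were higher in kidney and 0 in brain, led by Cldn8 (-2.24), Cldn10 (-2.19) and Cldn2 (-2.15). Without kidney FFPE these lists had 11, 8 and 4 calls, the claudins had 5 without kidney Frozen, and Cldn10 lost its call without kidney Frozen.

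Genes of glucose and fat metabolism were among those higher in kidney. Of 20 genes of gluconeogenesis and amino acid breakdown, 11 were higher in kidney: beside Pck1, G6pc, which releases glucose from its phosphate, read 5.92 and 5.81 in kidney Frozen and FFPE and 3.89 and 3.87 in brain, a difference of -1.98 ± 0.27 (limma adjusted p = 3.55e-06). Of 21 genes of peroxisomes and fatty acid oxidation, 8 were higher in kidney, among them Acadl, an enzyme of mitochondrial fatty acid oxidation (-1.33 ± 0.27). Of 364 solute carrier genes named Slc, gathered after the values were seen, 58 were higher in kidney (15.9%) and 19 higher in brain (5.22%), beside 6.23% and 4.7% of all genes. Those toward kidney included Slc27a2, which imports and activates fatty acids (-2.14), and Slc3a1, a subunit of the cystine transporter (-2.12); those toward brain included Slc12a5, the neuronal chloride exporter (1.43). The gluconeogenesis list had 6 calls without brain Frozen and without kidney FFPE and 5 without kidney Frozen. The peroxisome list had 4 without brain Frozen and 3 without kidney FFPE and without kidney Frozen. With the same median and spread in every library the Slc genes had 69 kidney and 46 brain calls, and with quantile normalization 70 and 44, so the excess toward kidney was smaller under these scalings. They had 33 kidney calls without kidney FFPE and 28 without kidney Frozen, and 11, 12, 5 and 8 brain calls without brain FFPE, brain Frozen, kidney FFPE and kidney Frozen.

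**Figure D4:**
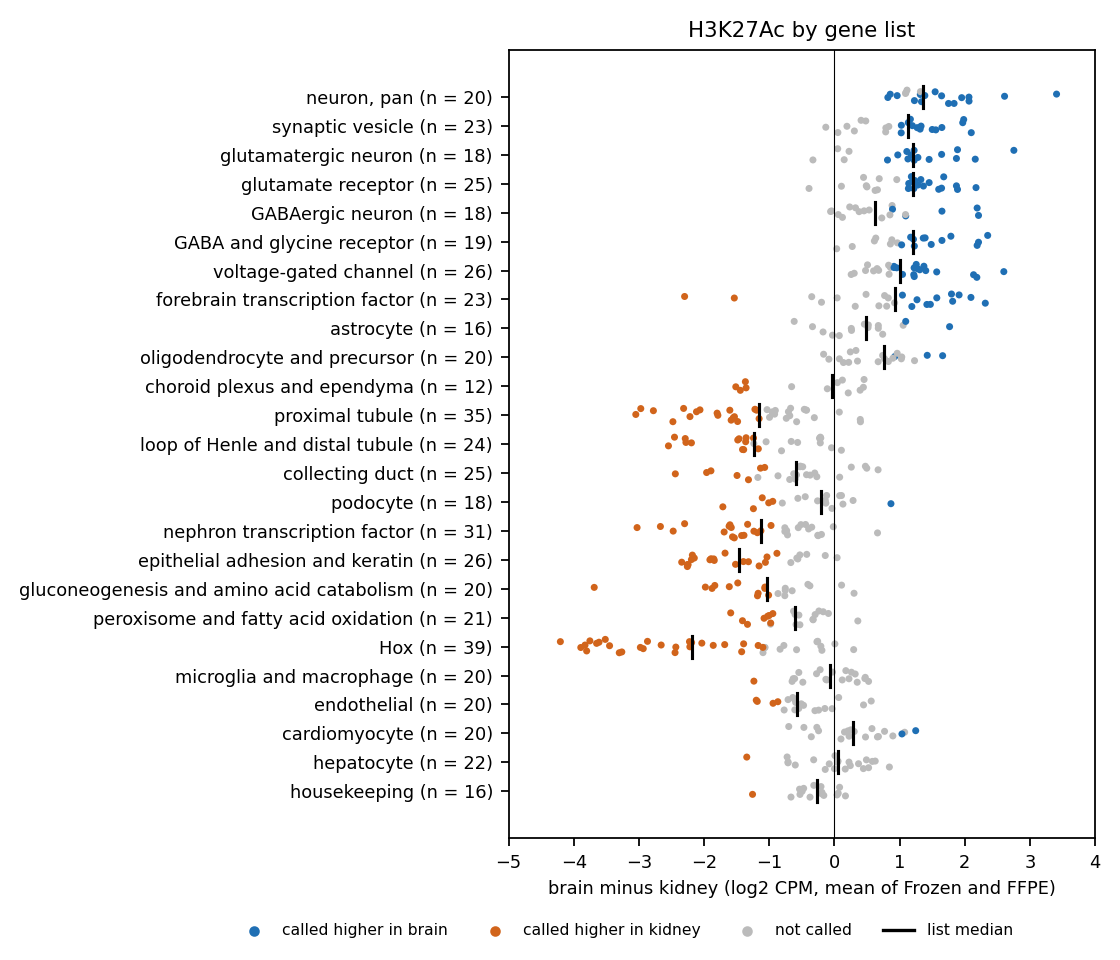
Brain minus kidney difference (x axis, log2 CPM) of each gene in 25 lists (y axis, with the number of genes), 1 point per gene, coloured by its call, with the list median as a black bar. Neuronal lists lie to the right with medians up to 1.36, nephron and epithelial lists to the left, and Hox genes farthest to the left with a median of -2.19.

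Hox genes were higher in kidney for 27 of 39 and higher in brain for 0, with a median of -2.19. The calls were grouped along the Hoxa, Hoxb and Hoxd clusters, while in Hoxc genes that were not called lay between them. In the Hoxa cluster on chromosome 6, 9 of 11 genes were called, and in the Hoxb cluster on chromosome 11, 8 of 10. In the Hoxc cluster on chromosome 15, 4 of 9 were called, and in the Hoxd cluster on chromosome 2, 6 of 9. Hoxa7 read 7.62 and 7.42 in kidney Frozen and FFPE and 2.98 and 3.65 in brain, and Hoxb4 read 7.23 and 7.66 against 3.61 and 3.50 (-3.89 ± 0.27; limma adjusted p = 9.77e-12). In Hoxd, Hoxd9 had the largest difference, with 6.64 and 7.07 in kidney against 3.75 and 2.92 in brain. In Hoxc it was Hoxc10, with 6.12 and 6.46 in kidney against 3.41 and 3.21 in brain.

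No gene at the ends of the clusters was called. Hoxa13 had 2.66 and 2.80 in brain Frozen and FFPE and 2.38 and 2.49 in kidney (limma adjusted p = 0.82), and Hoxb13, Hoxc12, Hoxc13, Hoxd12 and Hoxd13, which stand at the same end and act in the most caudal parts of the body, were not called either. At the other end Hoxb1, Hoxc4 and Hoxd1 were not called. Between them ran unbroken stretches of genes higher in kidney: 14 genes from Hoxa2 to Hoxa11os, 9 from Hoxb9 to Hoxb2 and 7 from Hoxd11 to Hoxd4, counting noncoding genes. Neighbouring and overlapping Hox transcripts share reads, so their calls are not independent. Of the genes that bound these stretches, Hoxa2 lost its call without kidney FFPE, Hoxa11os without brain Frozen or kidney FFPE, Hoxd11 without brain FFPE, kidney FFPE or kidney Frozen, and Hoxd4 without brain FFPE, brain Frozen or kidney FFPE. The Hox list had 19 calls without kidney FFPE, 21 without brain FFPE, 24 without kidney Frozen and 25 without brain Frozen.

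**Figure D5:**
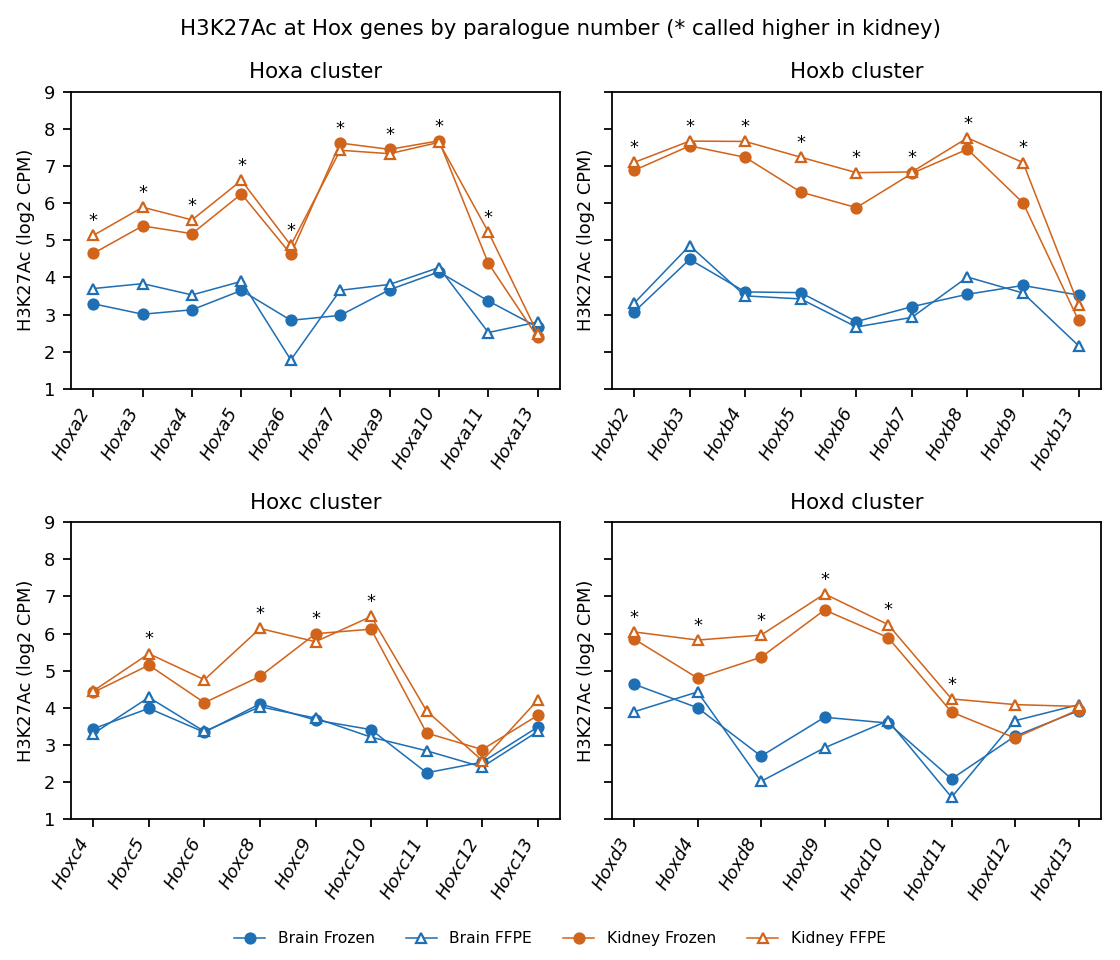
H3K27Ac level (y axis, log2 CPM) of the Hox genes numbered above 1 in each cluster by paralogue number (x axis) in the 4 libraries; a star marks a gene called higher in kidney. Kidney exceeds brain in the middle of each cluster, and none of the 4 genes numbered 13 was called.

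Loci of microRNAs were rarely called: of 573 tested, 12 were higher in brain (2.09%) and 16 higher in kidney (2.79%), beside 4.7% and 6.23% of all genes. A hairpin spans a median of 83 bases and the median locus had 19 counts over the 4 libraries, and at such counts a difference may not be detectable. Those called were chosen for description after their values were seen. The mature sequences of the loci known from neurons are given here from RefSeq (GRCm38.p6), 5′ to 3′, with the seed, bases 2 to 8, in capitals, since the seed sets which transcripts a microRNA recognizes. Of the 28 called loci, 24 had a mature sequence in the RefSeq table. Mir124a-3 is named only.
miR-9-5p (Mir9-1 and Mir9-3): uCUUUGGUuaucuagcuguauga
miR-128-3p (Mir128-2): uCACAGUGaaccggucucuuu
miR-129-5p (Mir129-2): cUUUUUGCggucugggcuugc
miR-137-3p (Mir137): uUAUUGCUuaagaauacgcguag
miR-153-3p (Mir153): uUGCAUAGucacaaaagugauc
miR-384-5p (Mir384): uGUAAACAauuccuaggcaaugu

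Mir124a-3, at chr2:180894040-180894107, had 42 counts in brain Frozen and 40 in brain FFPE and 0 in both kidney libraries. Against a floor of 3 counts per library it was at least 13.7-fold higher in brain in Frozen and at least 14.6-fold higher in FFPE. Mir9-1 had 33 and 53 counts in brain Frozen and FFPE and 8 and 3 in kidney, and Mir9-3, a separate locus with the same mature sequence, had 29 and 39 against 4 and 6. Mir128-2, which lies within the gene Arpp21, had 29 and 25 against 2 and 3, and Mir129-2 had 31 and 29 against 3 and 4. Mir137 had 12 and 19 against 0 and 4, Mir153 had 12 and 8 against 1 and 0, and Mir384 had 9 and 15 against 1 and 0. Brain exceeded kidney in both preservations at each of these loci. With such counts the calls depended on single libraries: Mir124a-3 kept its call without any 1 of the 4 libraries, but Mir9-3, Mir128-2 and Mir129-2 lost it without each of them, Mir9-1 and Mir384 without brain FFPE or kidney FFPE, Mir137 without brain FFPE, brain Frozen or kidney Frozen, and Mir153 without brain FFPE, brain Frozen or kidney FFPE. The 573 loci gave 2 calls toward brain without brain FFPE, 3 without brain Frozen, 2 without kidney FFPE and 6 without kidney Frozen.

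Toward kidney, Mir10a and Mir196b lie inside the Hoxb and Hoxa clusters. They are shown beside relatives with the same seed in other Hox clusters, which were not called, and 3 other loci higher in kidney.
miR-10a-5p (Mir10a): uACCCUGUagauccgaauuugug
miR-10b-5p (Mir10b): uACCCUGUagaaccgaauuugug
miR-196b-5p (Mir196b): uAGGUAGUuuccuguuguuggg
miR-196a-5p (Mir196a-1 and Mir196a-2): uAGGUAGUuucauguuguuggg
miR-203-3p (Mir203): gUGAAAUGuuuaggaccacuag
miR-107-3p (Mir107): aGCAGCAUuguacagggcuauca
miR-152-3p (Mir152): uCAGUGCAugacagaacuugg

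Mir10a, at chr11:96317165-96317274, had 30 and 39 counts in kidney Frozen and FFPE and 4 and 1 in brain (limma adjusted p = 0.0014), while Mir10b, in the Hoxd cluster, differed by -0.79 ± 0.89 and was not called. Mir196b had 55 and 52 against 7 and 2. Mir196a-1, in the Hoxb cluster, and Mir196a-2, in the Hoxc cluster, differed by -3.14 ± 1.21 and -1.87 ± 1.10 and were not called. Mir203, known from epithelia, had 27 and 28 against 7 and 2, Mir107, within the gene Pank1, had 34 and 32 against 2 and 3, and Mir152 had 14 and 20 against 6 and 0. Mir3109 had 25 and 28 against 5 and 0. The calls of Mir10a and Mir196b were lost without kidney FFPE, those of Mir203, Mir152 and Mir3109 without brain FFPE or kidney FFPE, and Mir107 kept its call without any 1 of the 4 libraries. The 573 loci gave 8 calls toward kidney without brain FFPE, 2 without kidney FFPE and 8 without kidney Frozen.

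A minority of the genes that differed lay beside others that differed the same way. Of 1203 genes higher in brain with a position, 32.8% had an adjacent gene that was also higher in brain, and of 1608 higher in kidney, 40.2% had one also higher in kidney. Over the 25087 genes with a position, 9.10% had a neighbour higher in brain and 11.8% one higher in kidney. When neighbours that overlap were not counted, the shares for the called genes were 23.8% and 32.1%. The matching shares over all genes were not computed, so 9.10% and 11.8% are not their background. As in the Hox clusters, calls at neighbouring genes may not be independent. Outside the Hox clusters the longest runs toward kidney were the 6 genes from Umod to Gm19950, which include Acsm1, Acsm2 and Acsm5, and the 6 from Ramp2 to Becn1 around Wnk4. The longest toward brain were the 5 genes from Tmem81 to Lrrn2, which include the axonal adhesion genes Cntn2 and Nfasc, and runs of 4 that include Gabra6 with Gabrb2, and Zic5 with Zic2. The genes higher in brain spanned a median of 29.3 kb, those higher in kidney 12.7 kb and all genes 14.6 kb. On chromosome X, 51 of 1157 genes were higher in brain (4.41%) and 18 higher in kidney (1.56%). Of the genes named for these runs, Ramp2 and Becn1 lost their calls without kidney FFPE, Acsm1 without kidney Frozen, and Tmem81 without brain Frozen, kidney FFPE or kidney Frozen.

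Promoter sequences of 4 genes that differed are shown with short motifs of factors known in each tissue. HNF4 binds promoters in kidney and liver, REST binds RE1 elements and silences neuronal genes outside neurons, and CREB binds the cyclic AMP response element (CRE). Sequences are from RefSeq (GRCm38.p6) and run 5′ to 3′ on the strand of the gene, from the 250 bases before the start site, with the motif in capitals.
Slc3a1, chr17:85028268-85028346, plus strand, with CAAAGTCCA: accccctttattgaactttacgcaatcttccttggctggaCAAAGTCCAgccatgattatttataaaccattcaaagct
Syn1, chrX:20921102-20921168, minus strand, with TTCAGCACC: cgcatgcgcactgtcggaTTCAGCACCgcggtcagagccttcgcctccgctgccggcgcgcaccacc
Jph4, chr14:55117094-55117182, minus strand, with GACAGCGCC read on the other strand: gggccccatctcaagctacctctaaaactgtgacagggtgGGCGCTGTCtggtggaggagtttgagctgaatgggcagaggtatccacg
Scg2, chr1:79440047-79440134, minus strand, with TGACGTCA: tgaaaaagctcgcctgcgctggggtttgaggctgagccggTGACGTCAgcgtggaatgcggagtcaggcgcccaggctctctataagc

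Slc3a1 was higher in kidney by the value above. Syn1, which tethers synaptic vesicles, read 5.39 and 5.69 in brain Frozen and FFPE and 3.72 and 4.24 in kidney (1.56 ± 0.30; limma adjusted p = 0.00048). Jph4, which joins the neuronal surface to the endoplasmic reticulum, differed by 2.21 ± 0.27. Scg2, a protein of secretory granules, differed by 1.32 ± 0.36 and lost its call without brain Frozen, kidney FFPE or kidney Frozen. Both strands of 18438 promoters were searched, each from 250 bases before to 50 after the start. The HNF4 core CAAAGTCCA was found in 0.542% of them, and in 10 of 1237 promoters of genes higher in kidney and 2 of 882 of genes higher in brain. The RE1 parts TTCAGCACC and GACAGCGCC were in 0.494% and 0.504%, with 3 and 5 toward kidney and 12 and 10 toward brain. The CRE TGACGTCA was in 2.56%, with 21 toward kidney and 35 toward brain. These counts are no check over the gene sets. Only 69.7% of the genes higher in brain, 73.7% of those higher in kidney and 68.4% of all genes have a promoter in the table. Base composition also differed, with a median GC of 61.7%, 59.7% and 57% in the same order, and was not accounted for. The counts describe those promoters alone, and a match is no evidence of binding.

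Markers of cell types found in both organs, and of other organs, are given beside a background of 4.7% of all genes higher in brain and 6.23% higher in kidney; several of these lists lie near it. Of 20 microglia and macrophage genes, 1 was called, Sall1, which microglia and nephron progenitors both use (-1.24 ± 0.28), and 3 were higher in kidney by an unadjusted p below 0.05. Of 20 endothelial genes, 4 were higher in kidney, 10 by an unadjusted p below 0.05 and 7 with quantile normalization, with a list median of -0.57. Of 15 genes of fibroblasts and smooth muscle, 0 were called, as for 10 adrenal cortex genes, 8 erythroid genes and 6 sex-linked genes; by an unadjusted p below 0.05 these 4 lists had 1, 0, 1 and 0, with observation weights 0 calls each at adjusted p below 0.05, and with quantile normalization 1, 0, 1 and 0. Of 15 lymphocyte genes, Cd4 was higher in brain (1.33 ± 0.28), of 12 adipocyte genes Fabp4 was higher in kidney (-1.47 ± 0.33), of 22 hepatocyte genes Apoa2 was higher in kidney (-1.34 ± 0.40), and of 16 housekeeping genes B2m was higher in kidney (-1.26 ± 0.29). Of 20 cardiomyocyte genes, 2 were higher in brain, Mybpc3 (1.25 ± 0.27) and Ryr2, a calcium release channel also used in neurons (1.04 ± 0.27), and 5 were by an unadjusted p below 0.05. No gene of these marker lists was at 0 counts in any of the 4 libraries. The endothelial list had 2 calls without brain FFPE and without brain Frozen and 0 without kidney FFPE. Sall1, B2m and Ryr2 were lost without kidney FFPE, Apoa2 and Mybpc3 without brain FFPE or kidney FFPE, and Fabp4 without kidney Frozen.

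Genes that respond within minutes to activity or stress went both ways. Of 27 immediate early genes, 3 were higher in brain (11.1%, beside 4.7% of all genes). They were the activity-regulated genes Egr4 (1.47 ± 0.34), Arc (1.11 ± 0.26) and Npas4 (1.04 ± 0.29). In kidney 5 were higher (18.5%, beside 6.23% of all genes): Zfp36, which destabilizes messenger RNAs of inflammation, Klf2, Klf4, Ier2 and Ier3. Zfp36 read 7.36 and 7.79 in kidney Frozen and FFPE and 4.84 and 5.10 in brain, a difference of -2.61 ± 0.29 (limma adjusted p = 1.14e-07), while Fos differed by 0.17 ± 0.27 and was not called. Of 12 heat shock genes, 6 were higher in kidney (50%, beside 6.23% of all genes). Among them were Hspa1b (-1.23 ± 0.27) and Hspa1a (-1.11 ± 0.30), near-identical copies of one gene. The summed level of the 12 was 594 CPM in brain Frozen, 616 in brain FFPE, 1173 in kidney Frozen and 974 in kidney FFPE. The heat shock count was 0 without brain Frozen, 0 without kidney FFPE, 0 without the preservation block, 4 without kidney Frozen and 9 without brain FFPE, and both Hspa1 genes were lost without brain Frozen and without kidney FFPE. The immediate early genes toward brain numbered 0 without brain FFPE, 0 without kidney FFPE and 1 without kidney Frozen, and those toward kidney 3 without brain Frozen, 1 without kidney FFPE and 3 without kidney Frozen. Klf2 and Ier2 lost their calls without brain Frozen, Klf2, Klf4, Ier2 and Ier3 without kidney FFPE, Klf4 without brain FFPE, Klf4 and Ier2 without kidney Frozen, and Npas4 without brain Frozen; Egr4 was the brain call left without kidney Frozen, while Zfp36 kept its call in each case. How long each tissue waited before freezing or fixation is not stated in the labels, and its part in these values was not tested. Of 20 clock genes, Bhlhe41 was higher in brain (1.06 ± 0.28) and Per2 higher in kidney (-1.23 ± 0.26). That is 5% each way, near the 4.7% and 6.23% of all genes, so it is no result about the list. Both calls were lost without kidney FFPE, and that of Bhlhe41 also without brain FFPE or kidney Frozen.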

How the data were processed

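H3K27Ac ChIP-seq of mouse brain and kidney was analysed from the table of the series. The submitters' processing notes name mm10 as the genome build and Bowtie2, featureCounts and limma as tools; the counted region of a gene is not stated there. The deposited values are log2 CPM, and 100% of them came out as whole counts (tolerance 0.001) after undoing the log2 and an offset of 0.5; no count was used as input to the test. Rows were named from the table's own symbols, and 25275 of 27179 identifiers matched RefSeq GRCm38.p6.

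All 8 H3K27Ac columns were fitted with limma 3.58.1 in R 4.3.3 (organ and preservation as terms, variance prior following the level, 3 residual degrees of freedom), the contrast was brain minus kidney, and p-values were adjusted by Benjamini-Hochberg over 26944 genes. Heart and liver served the spread only. On simulated data for brain against kidney, over 26939 genes with a spread of 0.25 log2, 41% of 2-fold and 98% of 4-fold changes were recovered, with 8 false calls. Every simulated gene had the same spread, and changes were placed only in genes above a minimum count. No disagreement between preservations beyond that spread was simulated, so these rates may not hold for the real libraries or for loci with few counts. The genes named were the 12 largest differences each way among genes called with at least 40 counts and no overlap between organs, up to 6 called members of each list, the first 4 of a list, members called against its direction, the Hox genes, and 6 genes with opposite signs. The members and lists were chosen with earlier results of these data known. Alternatives were other scalings, filters and variance settings, and leaving out each library. The 8 input samples listed in the labels were not analysed here. Some genes are counted in the lists and not reported here by name.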

Additional observations from a re-analysis of the deposited data

Results flagged for a closer look

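At 6 genes the brain minus kidney difference had opposite signs in Frozen and FFPE, each by at least 2-fold, and they were the 6 with the largest smaller difference among genes with at least 40 counts in both pairs. Each difference has 1 library a side, so the contrast between preservations was not tested. 4930558C23Rik differed by 1.41 in Frozen and -1.32 in FFPE, from 39 brain and 14 kidney counts in Frozen and 11 and 31 in FFPE. Btbd35f19 differed by 1.26 in Frozen and -1.23 in FFPE. In the other direction, Gm5946 differed by -1.30 in Frozen and 1.33 in FFPE, and Gm20765 by -1.25 and 1.11. Olfr638, an olfactory receptor gene, differed by -2.05 in Frozen and 1.20 in FFPE, and Vmn1r199, a vomeronasal receptor gene, by -1.20 and 2.11. All 6 have few counts, between 9 and 59 per library. Several belong to gene families, and whether their reads also match other members was not examined.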

How the results depend on the processing

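Of 2945 calls, 1266 were higher in brain and 1679 in kidney. The fit on the 4 brain and kidney libraries alone, with 1 residual degree of freedom, called 5460 (2486 and 2974), and the fit without the preservation block 1616 (732 and 884). A prior variance that did not follow the level gave 361 (165 and 196). The same median and spread in every library gave 4730, 2376 of them higher in brain, and quantile normalization 4465 with 2091 higher in brain. Leaving out 1 of the 8 libraries gave 857 to 3379 calls, 357 to 1474 higher in brain and 500 to 1911 higher in kidney; the lowest were without kidney FFPE, and an organ left with 1 library is assumed to vary like the others. With at least 10 counts in 2 of the 4 libraries, with no filter, with observation weights, or with a 2-fold minimum, the counts stayed within 1.5 times. Of 150 called genes named here, 58 were called in every setting that gave them a value and 0 changed direction. The 0 is no check of direction, which could not change in several settings. The estimated difference is the same without the preservation block, with the other prior variance and in the fit on the 4 libraries alone. It is also the same without any heart or liver library, and the named genes were chosen as called. No paired analysis was possible because the columns carry no replicate number. The cause of these changes was not tested. At loci with few counts, such as microRNAs, a difference may not be detectable.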
